A study of Mus musculus with 23 samples.

Results

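Genes that make, sense and remove extracellular adenosine were followed in E0771 luc2 GFP primary mammary tumours. The 4 genes are Nt5e, Entpd1, Adora2a and Ada, and all 4 had a row among the 770 genes of the nCounter panCancer mouse immune panel (750 endogenous and 20 reference genes). They were named as a set for this pathway, and Nt5e was chosen on its values, since it read higher in the tumours given doxorubicin and zoledronic acid than in placebo tumours. Its difference between those groups is therefore a description with no test.

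E0771 is a mammary carcinoma line of C57BL/6 mice. The cells used carry luciferase and a green fluorescent protein and were selected for homing to bone by repeated passage in mice. They were injected into the mammary ducts of female C57BL/6J mice of 6 to 8 weeks with an intact immune system. From day 9 the mice received Anakinra, a recombinant form of the natural IL-1 receptor antagonist, at daily doses of 1 mg/kg with doxorubicin at 2 mg/kg weekly followed by zoledronic acid at 100 µg/kg weekly (ADZ, 6 tumours), doxorubicin and zoledronic acid at the same doses (DZ, 6 tumours), Anakinra alone (A, 5 tumours) or placebo (P, 6 tumours). All were culled on day 23. The 23 tumours were measured in bulk, so that fewer cells of a type and less RNA per cell cannot be told apart. The labels give each tumour a number within its group and no batch.

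ATP released by stressed or dying cells is broken down outside the cell by a pair of membrane enzymes. CD39, the product of Entpd1, cuts ATP and ADP to AMP, and CD73, the product of Nt5e, cuts AMP to adenosine. Adenosine binds the receptor encoded by Adora2a, which raises cyclic AMP and dampens T cells, NK cells and macrophages. Adenosine deaminase, encoded by Ada, converts adenosine to inosine and so ends the signal. In tumours CD39 is known from macrophages, regulatory T cells and vessels, and CD73 from tumour cells, fibroblasts, vessels and some lymphocytes.

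Values are log2 of the barcode count times 1 factor per tumour, as the authors deposited them, and a difference of 1 is a doubling. Probes differ in efficiency, so levels were compared between tumours and not between genes. Each tumour gave between 882537 and 1677295 gene counts. The background, set in each tumour at 2 SD above the mean of the negative controls, ran from 4.06 to 5.37 on the log2 scale. Over the panel any pair of tumours correlated with r from 0.850 to 0.992. P replicate 4 stood apart, with a median log2 value over the 770 genes of 9.09, where the other 22 tumours ran from 7.81 to 8.64. The main results that involve P tumours are therefore also given without it.

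Nt5e read higher in DZ than in P tumours, and on the deposited scale the ADZ tumours lay between those groups and close to DZ. In ADZ tumours its log2 value ran from 9.30 to 9.85 with a median of 9.55. In DZ tumours it ran from 9.14 to 10.42 with a median of 9.72. In A tumours 1 to 5 it was 9.47, 9.31, 9.30, 8.94 and 9.63. In P tumours it ran from 8.42 to 10.05 with a median of 9.11. All 4 groups overlapped. The 6 DZ tumours all lay above the median of P, and 2 of them lay above the highest P tumour. In turn 3 of the 6 P tumours lay below the lowest DZ tumour and 4 of 6 below the lowest ADZ tumour. The P tumours spread most, by 1.63 log2 units from lowest to highest, against 1.28 in DZ, 0.69 in A and 0.55 in ADZ. The lowest Nt5e value of all 23 tumours was that of P replicate 4, and the highest that of DZ replicate 3.

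On the deposited scale group means of Nt5e stood in the order DZ, ADZ, A and P. They were 9.56 ± 0.24 in ADZ (SD, n = 6), 9.74 ± 0.51 in DZ (SD, n = 6), 9.33 ± 0.26 in A (SD, n = 5) and 9.09 ± 0.62 in P (SD, n = 6). As geometric means of normalised counts these are 757 in ADZ, 857 in DZ, 644 in A and 546 in P. The difference of DZ minus P was 0.65 on the log2 scale, or 1.57-fold. No neighbours in this order were set apart by more than 1 SD of the tumours within a group, which was 0.45. The difference was 0.63 after recentring of the tumours on their panel medians, 0.71 after quantile normalization and 0.51 without P replicate 4. It stayed between 0.51 and 0.84 with any 1 tumour left out. These settings were applied 1 at a time. Recentring lowers P replicate 4, highest in panel median, further against the other tumours. The recentred difference without that tumour was not computed. Against the same P tumours ADZ differed by 0.47 and A by 0.24, and without P replicate 4, the lowest of them, by 0.34 and 0.10. Against DZ the ADZ tumours differed by −0.18 and the A tumours by −0.41. No A tumour lay above the DZ median. The mean panel medians of ADZ and DZ, 8.10 and 8.31, lay further apart than 0.18. After recentring, the ADZ mean of Nt5e therefore no longer lay below that of DZ. The mean panel medians of A and P were 8.06 and 8.28. Recentring thus also raises ADZ and A against P and brings A nearer to DZ, so these differences depend on the scaling. The raw Nt5e counts of 262 to 1230 give a counting error of 0.055 log2 units for the median tumour, below the spread between tumours.

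**Figure D1:**
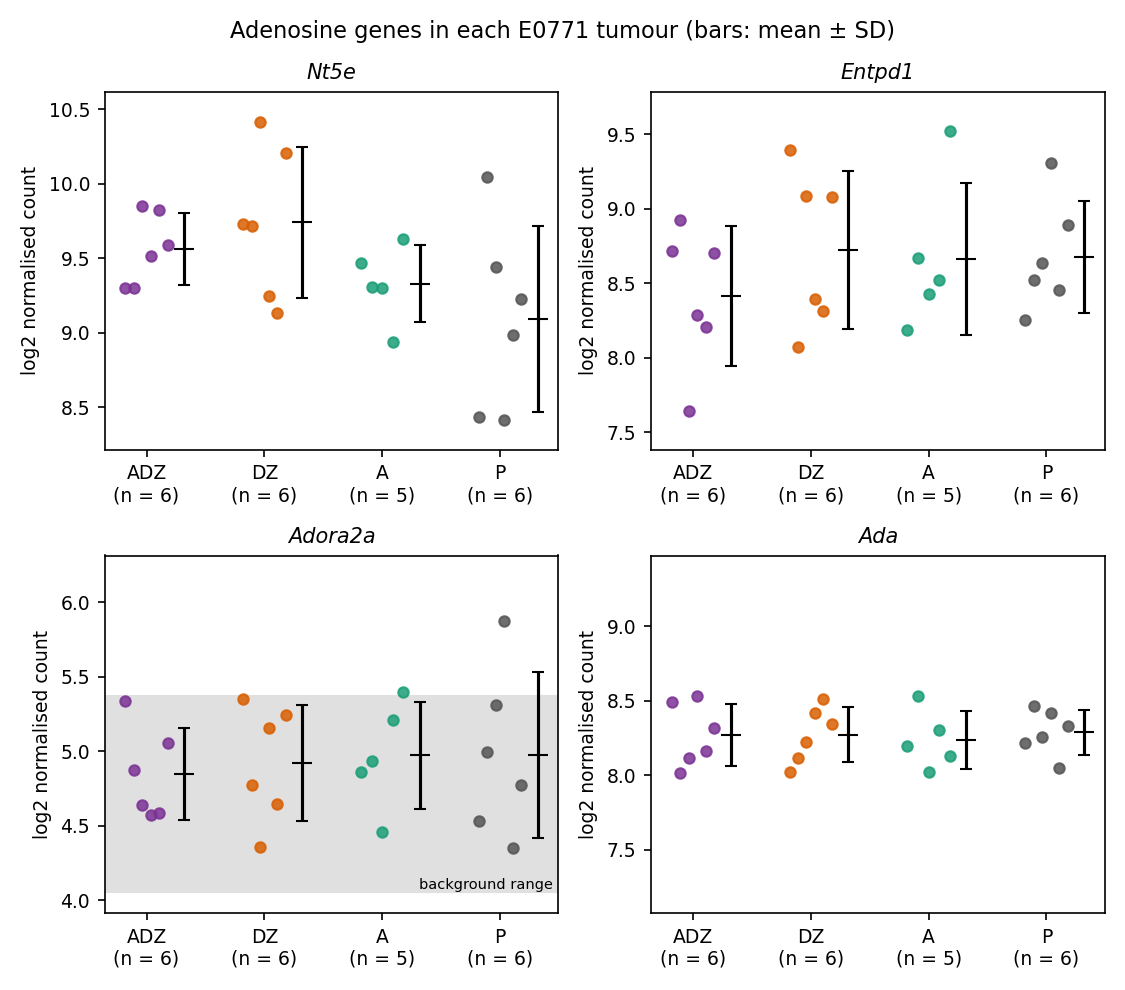
Log2 normalised count of each adenosine gene (vertical axis) in each tumour (points), by treatment group (horizontal axis), with the group mean and SD beside the points. Nt5e has its highest mean in DZ tumours (9.74) and its lowest in P tumours (9.09), Ada stays between 8.02 and 8.53 in all tumours, and most Adora2a points lie in the shaded band, which runs from the lowest to the highest background of a tumour.

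The comparison of ADZ with A asks the same drug question in mice that all received Anakinra, in tumours the choice of Nt5e did not use. There Nt5e differed by 0.23 log2 units, or 1.18-fold, and did not pass the test (standard error 0.27, 95% interval −0.32 to 0.79, limma adjusted p = 0.9999). By an exact two-sided permutation test of this value over all 462 assignments of the 11 tumours, p = 0.143, where the smallest p possible is 0.00216. Of the 6 ADZ tumours, 4 lay above the A median and 2 above the highest A tumour. The interval holds both no difference and the 0.65 seen between DZ and P. Its width draws on the spread within all 4 groups, so it also rests on the DZ and P tumours. Their SDs were 0.51 and 0.62, against 0.24 in ADZ and 0.26 in A. The permutation test used the ADZ and A tumours only. The difference stayed positive, at 0.19 to 0.23, under every scaling, filter and model tried. With any 1 tumour left out it was 0.14 to 0.31, and it passed the threshold in none of these. The gap between both drug differences, (ADZ minus A) minus (DZ minus P), was −0.42, or −0.28 without P replicate 4, and holds DZ and P tumours, so it has no test. In ADZ minus A, 0 of the 770 genes passed an adjusted p of 0.05 by limma (0% called) and 1 gene had an unadjusted p under 0.05 (0.130%), which was none of the adenosine genes. Voom on recovered counts and an ordinary linear model also called 0 genes.

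Entpd1 did not part the groups, and its SD within groups, pooled over all 4, was 0.47 beside 0.45 for Nt5e. It spread less than Nt5e in P tumours and more in ADZ and A tumours. Its log2 value in ADZ tumours ran from 7.65 to 8.93 with a median of 8.50. In DZ tumours it ran from 8.07 to 9.40 with a median of 8.74. In A tumours 1 to 5 it was 8.19, 8.67, 8.43, 8.52 and 9.52. In P tumours it ran from 8.25 to 9.31 with a median of 8.58. The means were 8.42 ± 0.47 in ADZ (SD, n = 6), 8.73 ± 0.53 in DZ (SD, n = 6), 8.67 ± 0.51 in A (SD, n = 5) and 8.68 ± 0.37 in P (SD, n = 6). The means of DZ, P and A lay within 0.059 of each other, and ADZ stood below them by less than 1 SD. The 3 highest tumours were A replicate 5, DZ replicate 1 and P replicate 4, each of another group, and the lowest was ADZ replicate 3. The largest difference was ADZ minus DZ, at −0.31 (standard error 0.27, 95% interval −0.86 to 0.24), and 1 of 6 ADZ tumours lay above the DZ median. In ADZ minus A it was −0.25 (95% interval −0.83 to 0.33, exact permutation p = 0.435), but −0.036 without A replicate 5. In DZ minus P it was 0.048 (95% interval −0.51 to 0.60), or 0.17 without P replicate 4.

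Adora2a lay near the detection limit, and its values cannot order the groups. Raw counts ran from 15 to 49. Its log2 value in ADZ tumours ran from 4.57 to 5.34 with a median of 4.76. In DZ tumours it ran from 4.36 to 5.35 with a median of 4.96. In A tumours 1 to 5 it was 4.86, 4.94, 4.46, 5.21 and 5.40. In P tumours it ran from 4.35 to 5.88 with a median of 4.88. It exceeded the background in 5 of 6 ADZ, 3 of 6 DZ, 4 of 5 A and 3 of 6 P tumours, which is 15 of 23. The highest value was that of P replicate 4. The counting error of a median tumour was 0.27 log2 units, against a spread within groups of 0.42. Group means spanned 0.13 log2 units, and ADZ minus A was −0.13 (95% interval −0.65 to 0.39, exact permutation p = 0.517). In DZ minus P the receptor differed by −0.052 (95% interval −0.55 to 0.44), by 0.040 with values raised to the background and by 0.13 without P replicate 4. Differences within these intervals were not resolved with this spread and these group sizes.

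Ada was the steadiest of the genes on the deposited scale, with every tumour between 8.02 and 8.53 and a within-group SD of 0.19. Of the 643 panel genes above background in at least 12 tumours, 90.5% varied more within groups, where the median SD was 0.45. Its log2 value in ADZ tumours ran from 8.02 to 8.53 with a median of 8.24. In DZ tumours it ran from 8.02 to 8.51 with a median of 8.28. In A tumours 1 to 5 it was 8.19, 8.53, 8.02, 8.30 and 8.13. In P tumours it ran from 8.05 to 8.46 with a median of 8.29. Each group covered nearly the same range. The means were 8.27 ± 0.21 in ADZ (SD, n = 6), 8.27 ± 0.19 in DZ (SD, n = 6), 8.24 ± 0.19 in A (SD, n = 5) and 8.29 ± 0.15 in P (SD, n = 6). In DZ minus P it differed by −0.015 with a 95% interval of −0.27 to 0.24, and in ADZ minus A by 0.036 with an interval of −0.23 to 0.31 (exact permutation p = 0.773). Both intervals leave out a difference of 0.65, the value of Nt5e in DZ minus P.

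The range of the 4 group means, divided by the SD within groups, was 1.46 for Nt5e, 0.66 for Entpd1, 0.31 for Adora2a and 0.28 for Ada, against a median of 0.57 over those 643 genes. The value of Nt5e follows from its choice, and the other genes lay near or below the median.

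Entpd1, Adora2a and Ada passed no test between any pair of groups by limma with Benjamini-Hochberg adjustment over 770 genes. In none of these comparisons did any of the 770 genes pass (0% called in each). At an unadjusted p under 0.05 the called genes were 12 in DZ minus P (1.56%), 9 in A minus P (1.17%), 11 in ADZ minus P (1.43%), 8 in ADZ minus DZ (1.04%) and 33 in A minus DZ (4.29%). In the interaction they were 2 (0.260%). Entpd1, Adora2a and Ada were not among them in any comparison. In A minus P, Entpd1 differed by −0.011 (95% interval −0.59 to 0.57), Adora2a by −0.00028 (−0.52 to 0.52) and Ada by −0.051 (−0.32 to 0.22). In ADZ minus P the differences were −0.26 for Entpd1 (−0.82 to 0.29), −0.13 for Adora2a (−0.62 to 0.37) and −0.015 for Ada (−0.27 to 0.24). In ADZ minus DZ they were −0.076 for Adora2a (−0.57 to 0.42) and −0.00039 for Ada (−0.26 to 0.26). In A minus DZ they were −0.059 for Entpd1 (−0.71 to 0.59), 0.051 for Adora2a (−0.44 to 0.54) and −0.036 for Ada (−0.35 to 0.28). The interaction was −0.30 for Entpd1 (−1.10 to 0.51), −0.076 for Adora2a (−0.79 to 0.64) and 0.051 for Ada (−0.32 to 0.42).

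The signs of these small differences followed the scaling. The mean panel median was 8.10 in ADZ, 8.31 in DZ, 8.06 in A and 8.28 in P, and recentring on it turned A minus P to 0.21 for Entpd1, 0.22 for Adora2a and 0.17 for Ada, and ADZ minus P to 0.052 for Adora2a and 0.16 for Ada. In A minus DZ it gave 0.18 for Entpd1 and 0.20 for Ada. Without P replicate 4, A minus P became 0.11 for Entpd1, 0.18 for Adora2a and −0.026 for Ada, ADZ minus P became −0.14, 0.053 and 0.011, and the interaction became −0.42, −0.26 and 0.025, in the same order.

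**Figure D2:**
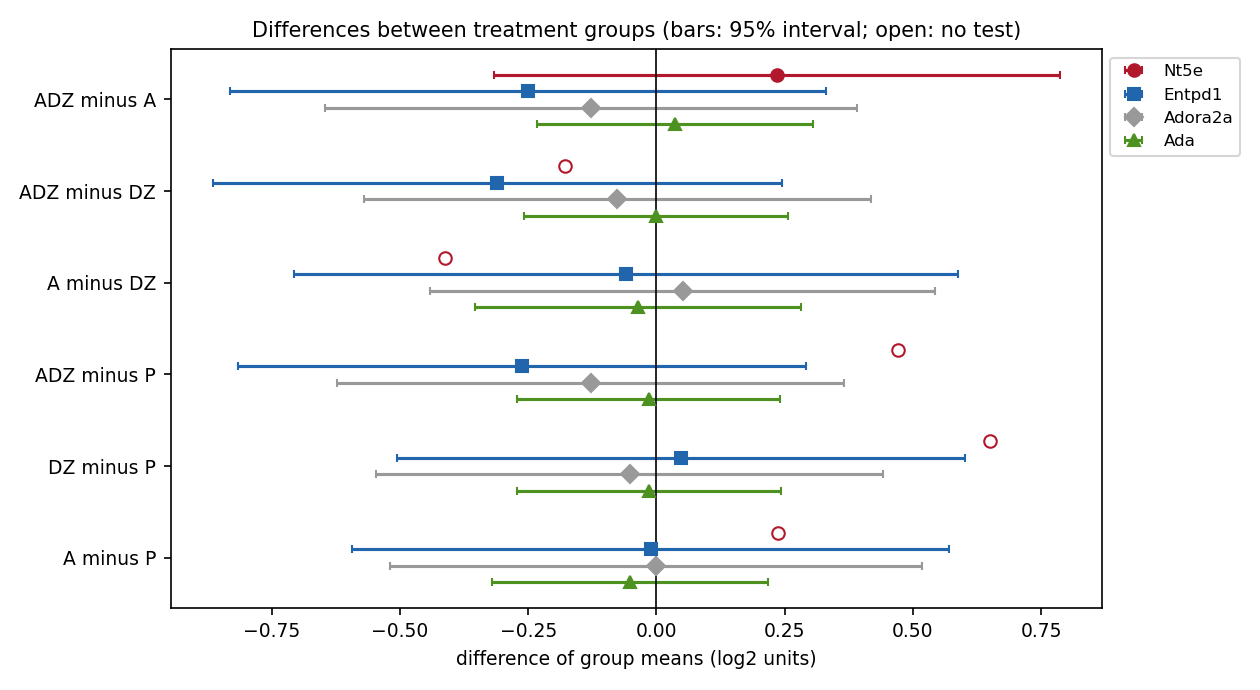
Difference of group means in log2 units (horizontal axis) for each adenosine gene in each comparison (vertical axis), with 95% intervals from limma, where open circles are Nt5e differences that hold the DZ or P tumours it was chosen on and carry no interval. Every interval crosses 0, the narrowest are those of Ada, and Nt5e in ADZ minus A stands at 0.23 with an interval of −0.32 to 0.79.

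Of 25 other genes of adenosine and extracellular nucleotide handling, 2 had a row on the panel. Cd38 begins another route to AMP by splitting NAD. It averaged 10.11 ± 0.25 in ADZ, 10.35 ± 0.23 in DZ, 10.09 ± 0.18 in A and 10.39 ± 0.51 in P (SD). Dpp4 encodes CD26, a surface peptidase that holds adenosine deaminase at the membrane in humans. It averaged 6.21 ± 1.15 in ADZ, 6.47 ± 1.005 in DZ, 5.81 ± 0.53 in A and 6.37 ± 1.55 in P (SD), and the highest P tumour stood at 9.41. Neither passed the test in any comparison. In ADZ minus A, Cd38 differed by 0.015 and Dpp4 by 0.39. In DZ minus P, Cd38 differed by −0.043 and Dpp4 by 0.095, but without P replicate 4 these were 0.16 and 0.70, so that both values hung on that tumour.

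A second list held 21 factors linked to cyclic AMP or to adenosine signals, among them hypoxia and TGF-beta factors and checkpoint receptors of T cells, and 19 had a row. None passed in either direction in any comparison. In ADZ minus A, 16 of the 19 were higher with a median of 0.098, beside 456 of 770 genes and a median of 0.035 over the panel. In DZ minus P, 13 were higher with a median of 0.078, beside 443 of 770 and a median of 0.036. Without P replicate 4 these were 17 and 0.15, beside 591 of 770 and 0.15. Hif1a, the oxygen-regulated factor that induces Nt5e in hypoxia, differed by 0.023 in ADZ minus A and by −0.038 in DZ minus P. Tgfb1, the main TGF-beta ligand, differed by −0.028 and 0.078 in the same comparisons, and Smad4, a transducer of that ligand, by −0.060 and −0.017. Those 3 were named for the highest levels. Tgfb2, another TGF-beta ligand, named after its values were seen, differed by 0.27 in ADZ minus A and by 0.44 in DZ minus P, or 0.51 without P replicate 4, and passed the adjusted test in neither.

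On the deposited scale Entpd1 and Adora2a varied together from tumour to tumour, whereas Nt5e and Ada followed neither them nor each other. Adora2a exceeded the background in only 15 of 23 tumours, and its values carry the factor of each tumour. In ADZ tumours its raw counts ran only from 27 to 30 while its log2 values ran from 4.57 to 5.34. Over the 23 tumours Entpd1 and Adora2a correlated with r = 0.58 (permutation p = 0.00370, adjusted over 6 pairs 0.0222) and rho = 0.58 (permutation p = 0.00422, adjusted 0.0253). With group means subtracted r was 0.57. Without the 2 tumours farthest from the Entpd1 median, ADZ replicate 3 and A replicate 5, r was 0.53 and the call ended (permutation p adjusted 0.0770), as it did without P replicate 4 (r = 0.50, adjusted 0.0964). Both genes rose with the panel as a whole, with r = 0.77 to the panel median for Entpd1 and 0.64 for Adora2a. After the panel median of each tumour was subtracted, r between them was 0.14. The other 5 pairs ran from r = −0.17, for Nt5e and Adora2a, to 0.26, for Adora2a and Ada. Nt5e had r = −0.015 to the panel median and Ada 0.28.

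Entpd1 was highest in tumours rich in leucocyte transcripts. Ptprc encodes CD45, carried by all leucocytes, and Entpd1 followed it with r = 0.79 (permutation p = 1e-05, the smallest that 100000 permutations can give) and rho = 0.74. The lists set for other cell types were compared by the mean of their centred log2 values. Entpd1 had r = 0.73 with the T cell list, 0.71 with the regulatory T cell (Treg) and macrophage lists, 0.57 with fibroblasts and matrix and 0.56 with the B cell list. It had r = 0.24 with neutrophils and −0.19 with endothelium. Adora2a had r = 0.67 with T cells, 0.66 with B cells, 0.58 with macrophages, 0.55 with Treg and 0.53 with Ptprc. Of all 36 pairs of a gene and a list, these 11 passed a permutation test of r after Benjamini-Hochberg adjustment, and 7 of the 11 also passed by rho.

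These relations rested in part on P replicate 4 and followed the overall level of the panel. With group means subtracted 10 pairs passed, without P replicate 4 there were 6, without the 2 tumours farthest on each list 4, and after subtraction of the panel median 0. Without P replicate 4 Entpd1 had r = 0.76 with Ptprc, 0.74 with T cells and 0.75 with B cells. Adora2a had r = 0.55 with B cells and no other pair that passed. That pair joins a gene near the background to a list with 7 of 9 genes mostly at or below it. After subtraction of the panel median Entpd1 had r = 0.43 with Ptprc and Adora2a −0.12. On the deposited scale the mean of the 20 reference genes was already 11.40 in every tumour. The panel was built of immune genes, so its median and leucocyte content cannot be told apart here. The fall to 0 pairs therefore does not show whether scaling or leucocyte content lay behind these relations, which was not tested.

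The summed level of the 11 T cell genes ran from 9.07 to 10.64 log2 units in ADZ, 9.46 to 10.37 in DZ, 9.04 to 10.47 in A and 9.64 to 11.70 in P. That of the 11 macrophage genes ran from 12.77 to 13.66 in ADZ, 12.92 to 14.31 in DZ, 13.09 to 13.85 in A and 13.26 to 14.95 in P. The 9 B cell genes summed to 6.86 to 8.30 in ADZ, 6.93 to 8.35 in DZ, 6.75 to 7.99 in A and 7.15 to 12.23 in P. Of those 9, 7 lay at or below background in most tumours, the defining gene Ms4a1 among them, as did 4 of the 9 neutrophil genes and 1 of the 11 T cell genes. Ptprc ran from 9.15 to 10.76 in ADZ, 9.34 to 10.79 in DZ, 9.13 to 10.99 in A and 9.15 to 11.47 in P. The groups overlapped in each of these sums, and the part of cell content in the Entpd1 and Adora2a values was not tested.

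**Figure D3:**
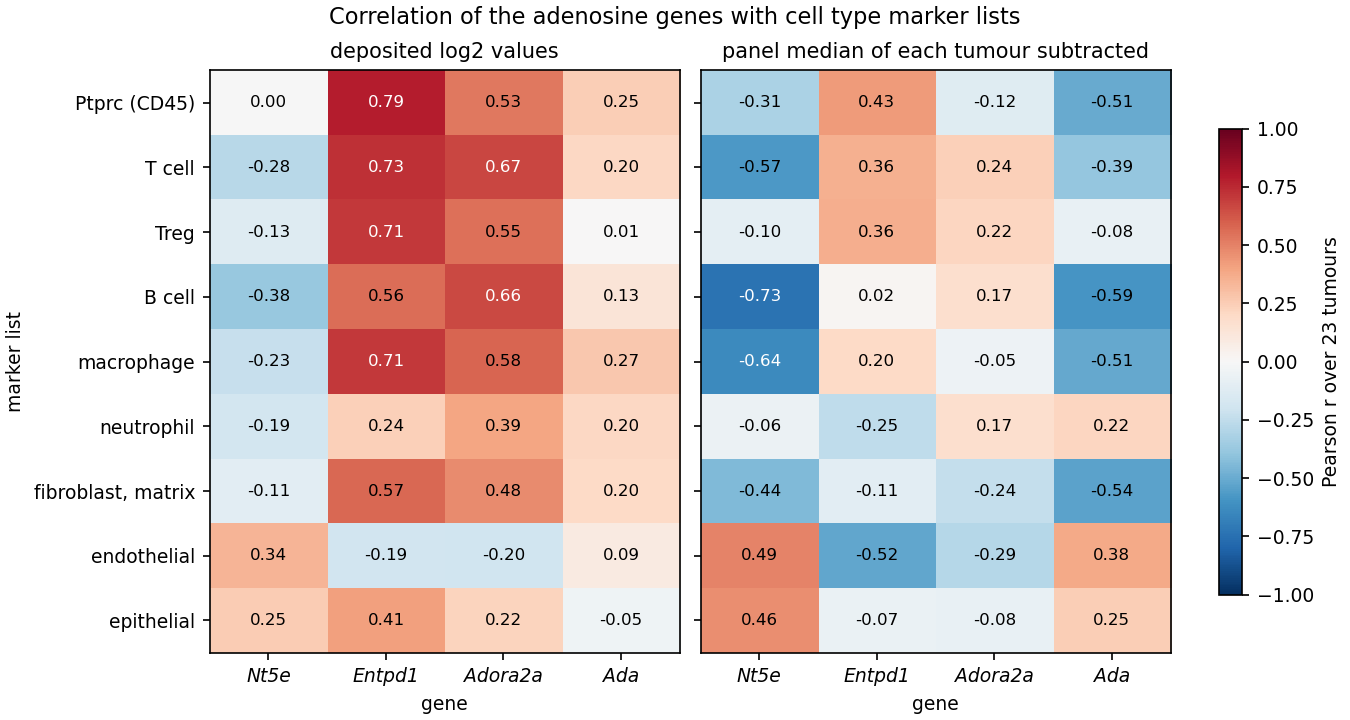
Pearson r over 23 tumours between each adenosine gene (horizontal axis) and the mean of each cell type list (vertical axis), on deposited values at left and with the panel median of each tumour subtracted at right. Entpd1 and Adora2a are positive with leucocyte lists at left, up to 0.79 for Entpd1 and Ptprc, and these values shrink or turn at right.

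On the deposited scale Nt5e had r with the leucocyte lists from −0.38 for B cells to 0.00 for Ptprc, and had its highest values with the endothelial list at 0.34 and the epithelial list at 0.25. Without P replicate 4 these were 0.40 for endothelium, 0.35 for epithelium and 0.27 for Ptprc, and B cells stood at 0.14. With the panel median of each tumour subtracted and all 23 tumours kept, Nt5e had r = −0.73 with B cells, −0.64 with macrophages and −0.57 with T cells. It had 0.49 with endothelium and 0.46 with epithelium. By rank these were weaker, with rho = −0.34, −0.53, −0.35, 0.44 and 0.30 in the same order. On this scale they were not computed without P replicate 4, which was lowest in Nt5e and highest in panel median. Because Nt5e was chosen on DZ and P tumours, its correlations are given with no p. They do count among the 6 and 36 pairs over which the p-values of the other genes were adjusted. In DZ minus P, 11 of 11 endothelial genes were higher with a median of 0.39. So were 7 of 10 fibroblast and matrix genes with a median of 0.27 and 7 of 7 epithelial genes with a median of 0.22. Over all genes 443 of 770 were higher with a median of 0.036. None passed the test. Without P replicate 4 the counts were 10 of 11, 10 of 10 and 7 of 7, with medians of 0.46, 0.44 and 0.24. Over all genes 591 of 770 were then higher with a median of 0.15. Leucocyte lists were also higher, with 9 of 11 macrophage genes at a median of 0.41 and 8 of 9 B cell genes at 0.28. Neutrophil genes stood at 8 of 9 and 0.25, and T cell genes at 9 of 11 and 0.098. In ADZ minus A the medians were 0.0081 for endothelial genes, with 6 of 11 higher, and 0.081 for fibroblast and matrix genes, with 8 of 10 higher. For epithelial genes the median was −0.0092, with 3 of 7 higher, and over all genes it was 0.035, with 456 of 770 higher. Endothelial genes summed to 11.68 to 12.90 in ADZ, 12.26 to 12.94 in DZ, 11.99 to 12.55 in A and 11.89 to 12.68 in P. Epithelial genes summed to 13.02 to 13.97 in ADZ, 13.19 to 14.20 in DZ, 13.40 to 13.94 in A and 12.80 to 13.91 in P. Fibroblast and matrix genes summed to 13.21 to 14.89 in ADZ, 13.72 to 15.16 in DZ, 13.53 to 14.47 in A and 13.56 to 15.93 in P. No gene of these lists lay mostly at background, and their part in the Nt5e values was not tested.

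The panel genes most like each adenosine gene were taken by Pearson r over the 23 tumours among 642 other genes above background in at least 12 tumours. For Nt5e the nearest was Il34, a cytokine that binds the CSF-1 receptor of macrophages, at r = 0.83 and rho = 0.79. It kept r = 0.78 with group means subtracted, 0.86 with the panel median subtracted and 0.78 without P replicate 4. P replicate 4 was lowest in both genes and DZ replicate 3 was highest in both. Next came Dusp4, a phosphatase of MAP kinases, at r = 0.63 and Tnfrsf9, the costimulatory receptor 4-1BB, at 0.61, and each had 0.48 without P replicate 4 and 0.74 with the panel median subtracted.

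For Entpd1 the nearest were Itgb2, the beta chain of leucocyte integrins (r = 0.88), Cd68, a lysosomal protein of macrophages (0.88), and Cd180, a Toll-like receptor relative of B cells and myeloid cells (0.87). They kept 0.88, 0.88 and 0.87 without P replicate 4, and 0.68, 0.59 and 0.67 with the panel median subtracted. For Adora2a they were Txk, a T cell kinase (0.76), Cma1, a mast cell chymase (0.75), and Ncf4, a subunit of the phagocyte oxidase (0.70), which had 0.64, 0.63 and 0.57 without P replicate 4 and 0.50, 0.43 and 0.30 with the panel median subtracted. For Ada they were Bax, a mediator of apoptosis (0.56), Mefv, the gene of pyrin (0.54), and Tlr6, a receptor for bacterial lipopeptides (0.54), which had 0.88, 0.51 and 0.68 with the panel median subtracted. These values describe likeness among genes of 1 panel that share tumours and scaling.

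**Figure D4:**
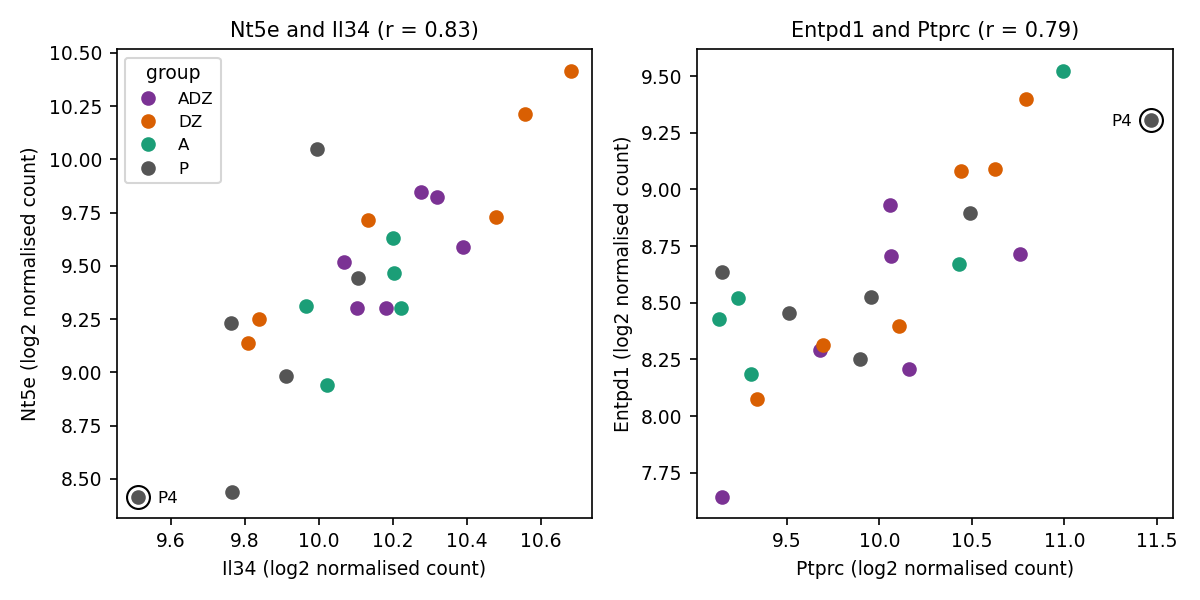
Log2 normalised count of Nt5e against Il34 (left) and of Entpd1 against Ptprc (right), with 1 point per tumour coloured by group and P replicate 4 ringed. Nt5e rises with Il34 (r = 0.83) and Entpd1 with Ptprc (r = 0.79), and tumours of all 4 groups lie along both trends.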

How the data were processed

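RNA of 23 primary tumours was hybridised to the nCounter panCancer mouse immune panel, and its barcode counts were processed by the authors in the nSolver software (4.0, with its Advanced Analysis 2.0 module). The deposited table holds log2 values, 1 column per tumour, with no aligner or genome build. Dividing out 1 factor per tumour (0.759 to 1.57) gave whole counts within 0.05 for 100% of values, apart from 6 values of exactly 0. Whether background was subtracted is not given in the sources used here.

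Groups came from the labels. limma 3.58.1 in R 4.3.3 (lmFit, eBayes, two-sided) was fitted to all 23 tumours, or for A minus DZ to those 11, as the methods state, with Benjamini-Hochberg adjustment over 770 genes, no filter and no pseudocount, and was tested on simulated data. Exact and 100000-resample permutation tests were computed with numpy 2.4.6, and the ranks for rho with scipy 1.17.1. Each A and DZ tumour came from an animal of its own, which is not stated for ADZ and P, so p-values there measure the spread between these samples, which may in part be technical. Counting errors cover the sampling of barcodes only.

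The genes named were the adenosine genes, panel genes of the pathway list, the 3 most alike genes of each and up to 3 of the highest genes of a list. The members and lists were chosen with earlier results of these data known. Alternatives were a pseudocount of 1, filters at means of 20 and 50 normalised counts, recentring, quantile normalization, values raised to background, other tumours in the fit, an intensity trend, an ordinary linear model, voom, a replicate block and tumours left out. Leaving P replicate 4 out of the correlations and gene lists was added after its values were seen.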

Additional observations from a re-analysis of the deposited data

How the results depend on the processing

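Entpd1, Adora2a and Ada crossed the adjusted threshold in no comparison under any alternative tried. Nor did Nt5e in ADZ minus A, the only comparison in which it was tested. Over the whole panel limma called 0 genes in each comparison and setting. Of the differences of single genes, 28 of 297 under other settings and 56 of 368 with a tumour left out were counted as turned in sign. All of these were of Entpd1, Adora2a or Ada, and the cause was not tested. For Nt5e a turn was counted only in ADZ minus A, where none occurred. Recentring turns the Nt5e difference of ADZ minus DZ, −0.18, as the mean panel medians of 8.10 and 8.31 lie further apart. With 1 tumour left out that difference stayed between −0.30 and −0.044. Recentring on the panel median gave Ada −0.0012 in ADZ minus A (by limma and by the single-value test), 0.17 in A minus P, 0.16 in ADZ minus P, 0.20 in ADZ minus DZ and 0.20 in A minus DZ. It gave Adora2a 0.22, 0.052 and 0.13 in A minus P, ADZ minus P and ADZ minus DZ, and Entpd1 0.21 and 0.18 in A minus P and A minus DZ. Quantile normalization gave Ada −0.00097 in ADZ minus A, 0.025 in DZ minus P, 0.17 in A minus P, 0.17 in ADZ minus P, 0.15 in ADZ minus DZ, 0.15 in A minus DZ and −0.026 in the interaction. It gave Adora2a 0.14 and 0.062 in A minus P and ADZ minus DZ, and Entpd1 0.17 and 0.094 in A minus P and A minus DZ. With values raised to the background Adora2a was 0.040 in DZ minus P and −0.048 in A minus DZ. With voom Entpd1 was 0.011 in A minus P and 0.0078 in A minus DZ.

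With 1 tumour left out at a time, Ada ran from −0.018 to 0.11 in ADZ minus A (by limma and by the single-value test), −0.063 to 0.035 in DZ minus P, −0.13 to 0.0026 in A minus P, −0.067 to 0.036 in ADZ minus P, −0.052 to 0.051 in ADZ minus DZ, −0.11 to 0.018 in A minus DZ and −0.0030 to 0.12 in the interaction. Adora2a ran from −0.18 to 0.13 in DZ minus P, −0.12 to 0.18 in A minus P, −0.25 to 0.053 in ADZ minus P, −0.19 to 0.0098 in ADZ minus DZ, −0.061 to 0.18 in A minus DZ and −0.26 to 0.048 in the interaction. Entpd1 ran from −0.086 to 0.18 in DZ minus P, −0.23 to 0.11 in A minus P and −0.27 to 0.075 in A minus DZ.

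Whether replicate numbers pair the tumours is not known. The deviations of like-numbered tumours correlated above 0.1 in 1 to 4 pairs of 5 or 6 between groups and never in all. Between DZ and P they ran from −0.63 to 0.76. Unlike-numbered tumours were not set beside them, so these values cannot decide it. With the replicate number as a block, Nt5e in ADZ minus A was 0.19, and Adora2a in A minus P 0.022 and Entpd1 in A minus P and A minus DZ 0.046 and 0.012, and no call changed.

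The 1 called pair of adenosine genes became 0 after subtraction of the panel median, without the 2 farthest tumours and without P replicate 4, and the 11 called pairs with cell type lists became 0, 4 and 6. Subtracting the panel median turned Nt5e with Entpd1 to −0.027, Nt5e with Ada to 0.38, Entpd1 with fibroblasts to −0.11, and Adora2a with macrophages and Ptprc to −0.047 and −0.12. Nt5e with Ptprc was 0.27 without the 2 farthest tumours. Without P replicate 4, Nt5e was at 0.27 with Ptprc, 0.093 with macrophages and 0.092 with Adora2a.

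With 5 or 6 tumours a group and a within-group SD near 0.45, smaller differences of Nt5e and Entpd1 were not resolved. Nor were those of Adora2a, at an SD of 0.42, and its counts of 15 to 49 lay near the background.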
